A study of Homo sapiens with 2 samples.

Results

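PABPC1 peaks of RWPE-ERG cells on chromosomes 5, 9 and 20 were examined, limited to weak ones, that is, peaks of 3 to 5 ChIP tags at the summit and less than 400 bp long. These were 284 of the 1481 peaks called in RWPE-ERG cells, or 19.2%, and 284 of the 368 peaks on the 3 chromosomes. Chromosome 5 held 103 of them, chromosome 9 held 94 and chromosome 20 held 87. The chromosomes were chosen because they carry many peaks per Mb, and the peaks were selected on their tags and length, so these values describe the peaks and test nothing. The same limits gave 812 weak peaks on the other 19 autosomes, which served for comparison.

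RWPE cells are an immortalized, non-tumorigenic line of human prostate epithelium, and RWPE-ERG cells carry a vector for expression of ERG, an oncogenic ETS factor, where the RWPE-empty vector cells carry the vector alone. Both were grown in serum-free keratinocyte medium with bovine pituitary extract and EGF, and both were subjected to ChIP-seq with the same PABPC1 antibody. Each of the 2 conditions had 1 ChIP library and 1 input library, so no spread between replicates was available and no test compares conditions. The study states that several ChIP experiments were pooled for sequencing, and they cannot be told apart in the peak lists. The sources used here do not say whether either line is a single clone. The RWPE-ERG peaks rest on 2366623 ChIP tags and 9746026 input tags, and the RWPE-empty vector peaks on 38648756 and 15751557.

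PABPC1 is a poly(A)-binding protein that coats the tails of messenger RNAs, mostly in the cytoplasm. ERG binds DNA through the ETS domain, which recognizes a GGAA or GGAT core, and is often overexpressed in prostate tumors after fusion to the TMPRSS2 promoter. In ChIP-seq, DNA cross-linked to a protein is recovered with an antibody and sequenced. Input DNA is sequenced without the antibody, and its tags follow the number of copies of a region in the cells, as well as base composition, open chromatin and how uniquely reads can be placed. The number of DNA copies of these chromosomes was not measured in these cells.

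The sequences that the results below turn on are given on hg19, plus strand, 5′ to 3′. Capitals mark GGAA or its reverse complement TTCC and, where named, ACGGAT or its reverse complement ATCCGT. First are weak peaks in introns of CDH4, the gene with most of these peaks, followed by a peak in an intron of PREX1 that holds both motifs and by a peak made of a short repeat in PURPL.
CDH4, chr20:60185719-60186017: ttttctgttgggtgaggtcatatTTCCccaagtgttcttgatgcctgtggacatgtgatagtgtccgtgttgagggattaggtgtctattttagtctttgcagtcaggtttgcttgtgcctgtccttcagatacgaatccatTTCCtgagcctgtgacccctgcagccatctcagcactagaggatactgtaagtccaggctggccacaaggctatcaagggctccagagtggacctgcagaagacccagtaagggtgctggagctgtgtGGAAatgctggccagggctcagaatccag
CDH4, chr20:60251166-60251464: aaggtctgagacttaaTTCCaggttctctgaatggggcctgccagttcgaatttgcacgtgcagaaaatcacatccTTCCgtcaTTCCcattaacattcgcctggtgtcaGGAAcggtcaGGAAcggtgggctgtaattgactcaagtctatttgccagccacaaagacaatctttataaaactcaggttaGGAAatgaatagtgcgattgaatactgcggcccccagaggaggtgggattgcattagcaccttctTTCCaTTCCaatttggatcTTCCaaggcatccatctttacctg
PREX1, chr20:47316369-47316667: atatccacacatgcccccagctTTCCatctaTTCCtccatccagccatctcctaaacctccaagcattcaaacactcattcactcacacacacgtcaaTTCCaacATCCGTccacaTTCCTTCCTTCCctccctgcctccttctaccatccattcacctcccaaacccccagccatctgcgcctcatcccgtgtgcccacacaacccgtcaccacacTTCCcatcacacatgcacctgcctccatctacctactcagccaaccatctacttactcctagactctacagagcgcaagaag
PURPL, chr5:27426591-27426889: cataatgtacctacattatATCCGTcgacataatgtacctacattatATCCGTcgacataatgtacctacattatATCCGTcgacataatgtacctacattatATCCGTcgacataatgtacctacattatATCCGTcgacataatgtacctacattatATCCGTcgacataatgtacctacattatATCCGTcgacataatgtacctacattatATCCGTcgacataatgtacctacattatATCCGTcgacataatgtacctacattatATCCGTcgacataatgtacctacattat

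Weak peaks were denser on the 3 chromosomes than on the other autosomes, and the excess lay on the long arms. There were 0.795 weak peaks per Mb of known sequence on chromosomes 5, 9 and 20 and 0.349 on the other autosomes, a ratio of 2.28 (95% interval 1.98 to 2.61). Chromosome 20 had 1.46 per Mb, chromosome 9 had 0.782 and chromosome 5 had 0.580, which gave them ranks 1, 2 and 5 among the 22 autosomes. Intervals of densities, shares and medians cover counting error only, since reads from 1 library share its chromatin and its amplification.

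The long arms held 243 of the 284 weak peaks, 1.02 per Mb, and the short arms held 41, 0.345 per Mb. Summed over the other autosomes, long arms held 0.351 per Mb and short arms 0.344, but single chromosomes among them differed. The density of the long arm over that of the short arm was 2.07 (1.19 to 3.85) on chromosome 5, 3.90 (2.16 to 7.64) on chromosome 9 and 4.50 (2.47 to 8.84) on chromosome 20. The 3 together gave 2.95 (2.12 to 4.22) and the other autosomes, summed, 1.02 (0.879 to 1.19). A denser long arm was not limited to chromosomes 5, 9 and 20. Of the 17 autosomes with weak peaks on both arms, chromosome 3 had the highest ratio, 12.1 (3.05 to 105, with 2 peaks on its short arm), and chromosome 8 came next with 6.50 (2.41 to 24.7). Chromosomes 20 and 9 followed, chromosome 5 had rank 7, and chromosome 18 had the lowest ratio, 0.217 (0.0523 to 0.852). The short arms had 0.324 per Mb on 5p, 0.281 on 9p and 0.495 on 20p, the last of which ranked 12 among 39 arms. The long arms had 0.670 on 5q, 1.10 on 9q and 2.23 on 20q, which gave ranks 5, 2 and 1 among 39 arms.

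**Figure D1:**
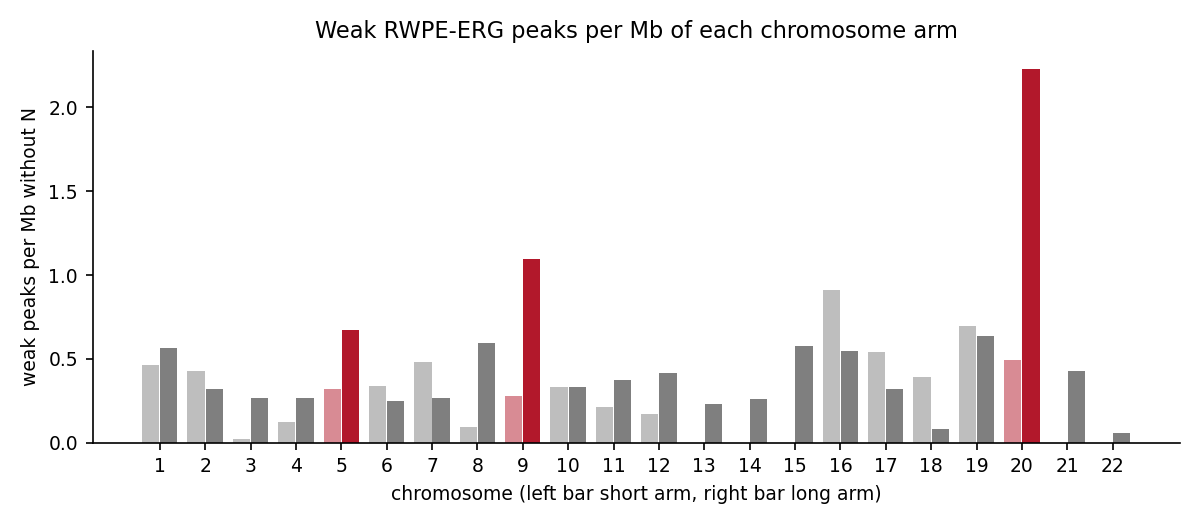
Weak RWPE-ERG peaks per Mb of known sequence (y axis) on each arm of the 22 autosomes (x axis), with the short arm as the left, paler bar and the long arm as the right bar. Chromosomes 5, 9 and 20 are red, and their long arms reach 0.670, 1.10 and 2.23 per Mb while their short arms stay at or below 0.495.

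The local input under each peak was read back from the deposited values as the pileup plus 1, divided by the fold enrichment, minus 1. The peak caller takes the highest of a genome-wide level and of the input in the window of the fragment length, in 1 kb and in 10 kb. All 1096 weak autosomal peaks solved to whole numbers of input tags in these windows or to the genome-wide level, which is 36.1 input tags per 10 kb. Multiples of 10 tags per 10 kb fit the 1 kb and the 10 kb window alike, and these were counted under the 1 kb window. Below, an input "above the genome-wide level" means that a local window exceeded that value, and inputs set by shorter windows are given as the same number of tags per 10 kb. The p cut-off caps the input that a weak peak can have, at 59 tags per 10 kb for a peak of 3 ChIP tags, 101 for 4 and 152 for 5.

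Input was above the genome-wide level at 214 of the 284 weak peaks, 75.4% (95% Wilson interval 70.0 to 80.0), and at 357 of 812 on the other autosomes, 43.97% (40.6 to 47.4). The median was 46 input tags per 10 kb (44 to 48), 1.27 times the genome-wide level, where the median of the other autosomes was that level itself. Chromosome 5 had the highest share of the 22 autosomes, 79.6%, followed by chromosome 9 with 73.4% and chromosome 20 with 72.4%. Chromosomes 1, 16, 17 and 19 together gave 42.9% of 238 weak peaks. The 10 kb window alone fitted the input at 150 of the 284 peaks, 52.8%, and at 182 of 812 elsewhere, 22.4%. Another 47 peaks, 16.5%, and 102 elsewhere, 12.6%, fitted both the 1 kb and the 10 kb window, and which of them set the input cannot be told. The window of the fragment length, which a single stretch of reads can fill, set it at 17 peaks, 5.99%, and at 8.99% elsewhere.

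The raised input also lay on the long arms. On the long arms of the 3 chromosomes 195 of 243 weak peaks had an input above the genome-wide level, 80.2% (74.8 to 84.8), and on the short arms 19 of 41 did, 46.3% (32.1 to 61.3). Long and short arms of the other autosomes gave 46.1% and 39.3%. By arm the share was 86.4% on 5q, 78.4% on 20q and 75.3% on 9q, the highest of the 32 arms with at least 10 weak peaks, and 1q came next with 67.8%. The short arms, with few peaks each, gave 61.5% of 13 on 9p (35.5 to 82.3), 40% of 15 on 5p and 38.5% of 13 on 20p. The interval of 9p overlapped that of 9q (64.9 to 83.4). The median input was 49.5 tags per 10 kb on 5q (46 to 51), 46 on 9q (42 to 49) and 46 on 20q (45 to 50). Across the 32 arms the density of weak peaks and the share with raised input had a Pearson r of 0.432 and a Spearman rho of 0.267, as a description over arms of the same library.

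**Figure D2:**
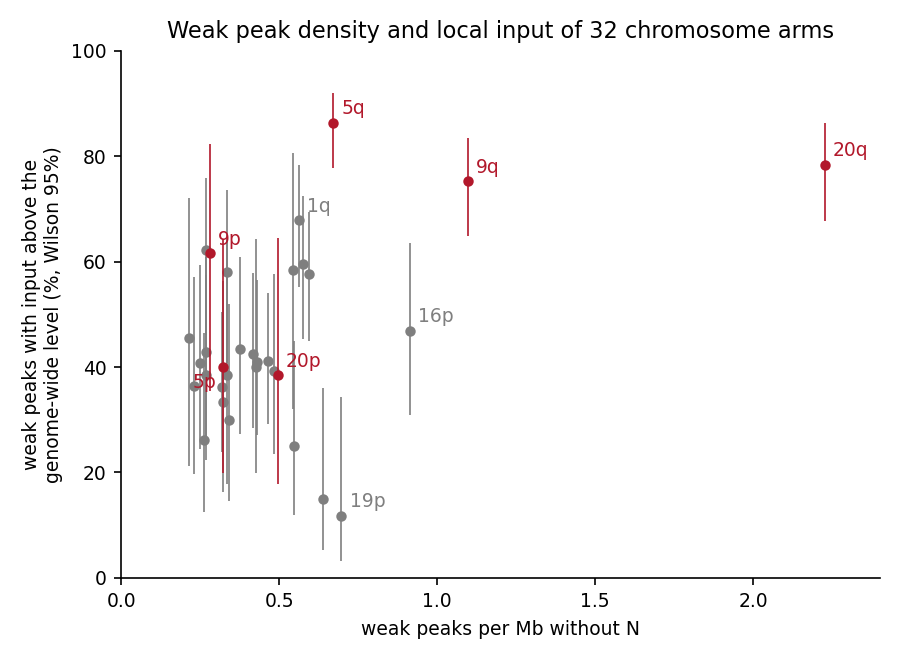
Weak peaks per Mb of known sequence (x axis) and the percentage of weak peaks with input above the genome-wide level (y axis, bars are 95% Wilson intervals) for the 32 autosomal arms with at least 10 weak peaks. The arms 5q, 9q and 20q (red) lie at the top with 86.4%, 75.3% and 78.4%, while 5p, 9p and 20p (red) lie among the arms of the other autosomes (grey).

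A higher share was also seen in peaks that the limits on tags and length had left out. The 3 chromosomes carried 84 such peaks, 50 of 6 or more tags and 34 of 3 to 5 tags and at least 400 bp. On the long arms 70 of these 78 peaks, 89.7% (81.0 to 94.7), had an input above the genome-wide level, and on the short arms 3 of 6 did. On the other autosomes 91 of 134 such peaks of the long arms did, 67.9% (59.6 to 75.2). Over both arms the shares were 86.9% (78.1 to 92.5) and 66.4% (59.7 to 72.4).

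The difference was present at each number of tags and in each class of base composition. The share with raised input was 64.3% against 35.1% on the other autosomes for peaks of 3 ChIP tags, 79.1% against 42.3% for 4 tags and 73.5% against 48.5% for 5 tags. The peaks were grouped by the GC content of the 10 kb around the summit, a split added after the data had been seen. Where GC was under 40%, 83.8% of the weak peaks on the 3 chromosomes and 53.3% elsewhere had a raised input. At 40 to 45% these shares were 90.6% and 54.1%, and at 45 to 50% they were 80.4% and 38.5%. At a GC content of 50% or more they fell to 54.4% and 22.4%, so GC-rich surroundings went with a lower input on both sets of chromosomes.

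**Figure D3:**
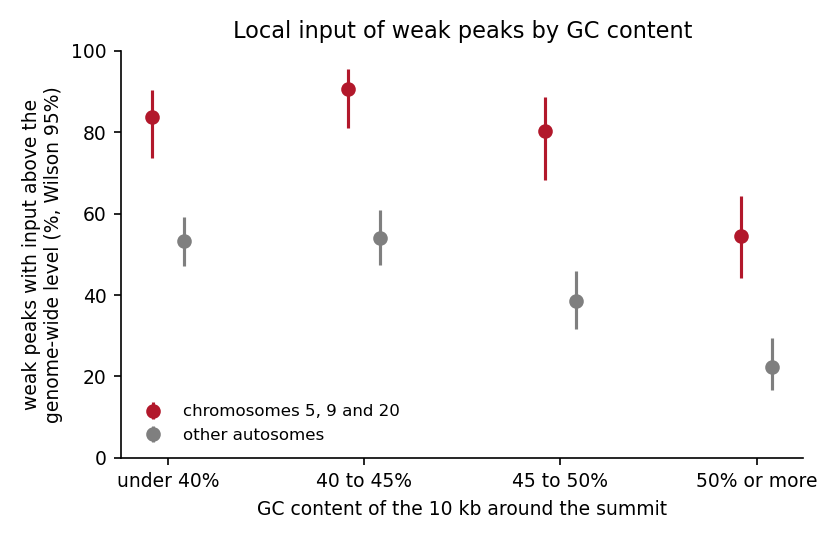
Percentage of weak peaks with input above the genome-wide level (y axis, bars are 95% Wilson intervals) by GC content of the 10 kb around the summit (x axis), for chromosomes 5, 9 and 20 (red) and the other autosomes (grey). The red points exceed the grey ones in each of the 4 classes, and both fall at a GC content of 50% or more, to 54.4% and 22.4%.

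Raised input was found along most of the long arms, and its share fell in the bins near the telomeres. On chromosome 5 every one of the 14 peaks between 50 and 90 Mb had an input above the genome-wide level, and the bins of 10 Mb from there to 170 Mb held 85.7% to 100% such peaks. On 20q all 29 peaks between 40 and 60 Mb were above it, with medians of 54.5 and 50 input tags per 10 kb in the bins of 10 Mb. Near the ends the share dropped, to 53.3% of 15 peaks on chromosome 5 between 170 and 180 Mb, 45% of 20 on chromosome 9 between 130 and 140 Mb and 53.3% of 30 on chromosome 20 from 60 Mb. In the short last bin of chromosome 9, beyond 140 Mb, both of 2 peaks were above the level, with a median of 50.5 tags per 10 kb. The other bins near the ends were the richest in GC on their chromosomes apart from that last bin, with 46.3%, 52.2% and 55.5%. On the short arms, no weak peak lay between 30 and 40 Mb of chromosome 5 or in the first 10 Mb of chromosome 9.

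**Figure D4:**
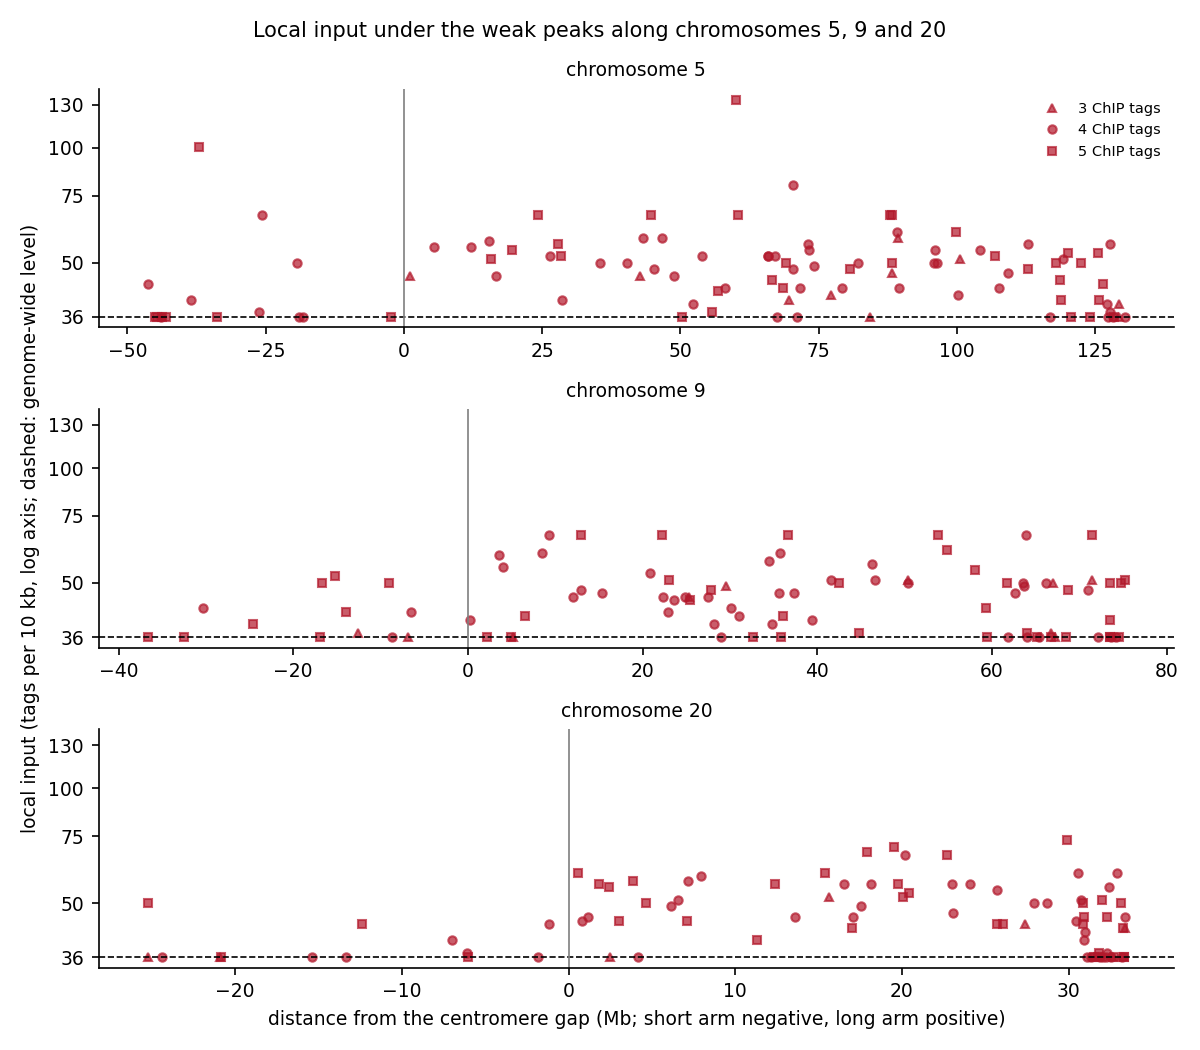
Local input of each weak peak (y axis, input tags per 10 kb on a log axis) by its distance from the centromere gap (x axis, Mb, short arm negative) on chromosomes 5, 9 and 20, with symbols for 3, 4 and 5 ChIP tags. Most peaks of the long arms lie above the dashed genome-wide level of 36.1 tags per 10 kb, and many near the ends of the long arms and on the short arms lie on it.

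The end of 20q stood out in density. Of the 87 weak peaks of chromosome 20, 30 lay beyond 60 Mb, 10.5 per Mb, and 27 of these 30 had another weak peak within 100 kb. In the last 3 Mb of each arm, 20q held 10.6 weak peaks per Mb, the most of 39 arm ends, 8q 4.58 and 9q 3.11. The ends of the other autosomes together held 0.718 per Mb, and 13 of their 69 weak peaks, 18.8%, had a raised input, where 16 of 30 did at the end of 20q. Without chromosome 20 from 60 Mb on, the density ratio of the 3 chromosomes to the other autosomes was 2.05, a value added after the data had been seen.

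**Figure D5:**
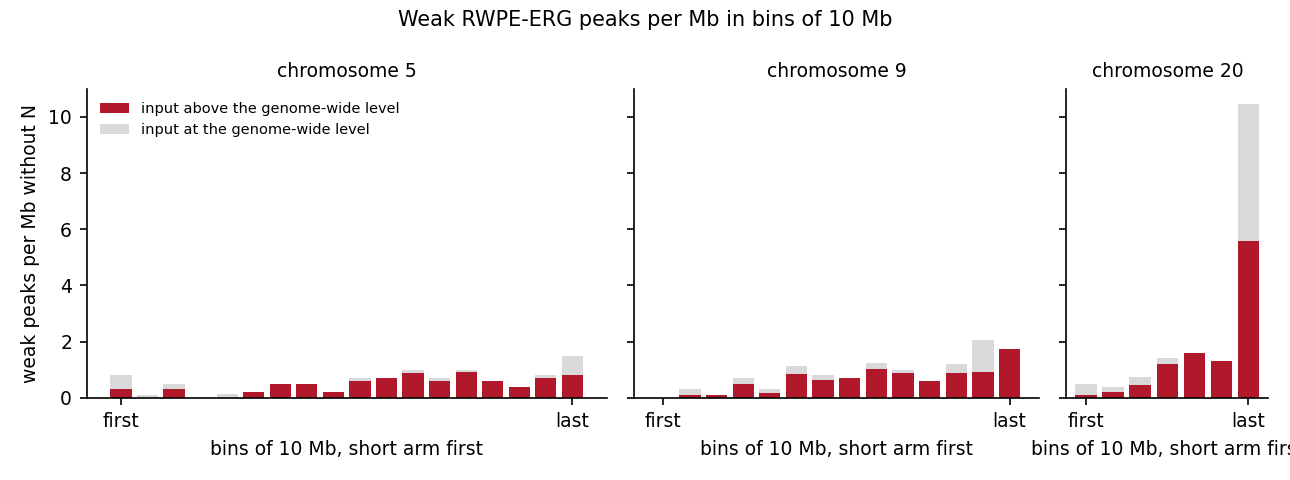
Weak peaks per Mb of known sequence (y axis) in bins of 10 Mb along chromosomes 5, 9 and 20 (x axis, from the end of the short arm to the end of the long arm), split into peaks with input above the genome-wide level (red) and at it (grey). The last bin of chromosome 20, which is shorter than 10 Mb, holds 10.5 per Mb, 53.3% of them with a raised input, and no other bin exceeds 2.05 per Mb.

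Neighbouring weak peaks were closer to each other than on the other autosomes, with a median of 603 kb to the next peak (502 to 803) against 1482 kb (1325 to 1701). Another weak peak lay within 100 kb of 84 of the 284 peaks, 29.6%, and of 12.4% on the other autosomes. Within 10 kb it did for 19 peaks, 6.69%, against 2.34%. Chromosome 20 was the most clustered, with 49.4% within 100 kb, against 25.5% on chromosome 9 and 16.5% on chromosome 5. The spacing follows the density, and how much of it goes beyond that was not tested. Measured between peak centres, the closest pair, at chr5:178781782-178782080 and chr5:178782858-178783156, lay 1.08 kb apart. Its peaks had 3 ChIP tags each and inputs of 39 and 36.1 tags per 10 kb. A pair at chr9:78440160-78440469 and chr9:78441231-78441577 lay 1.09 kb apart, with 4 and 5 ChIP tags. In MYT1, which encodes a zinc finger factor of neural cells, a pair in an intron lay 1.13 kb apart, with 3 and 4 ChIP tags. Both MYT1 peaks are tandem repeats, where 94.1% and 100% of the stretches of 10 bases recur within the peak.

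The weak peaks were spread over many genes. The nearest protein-coding start belonged to 231 different genes, 196 of them for a single peak. CDH4, which encodes R-cadherin, a calcium-dependent cell adhesion protein, was nearest to 8 peaks, the most of any gene. The gene spans chr20:59827317-60515673 on the plus strand, 688 kb, and 9 weak peaks lay inside it, 8 in introns and 1, at chr20:60513948-60514246, in an exon. For 2 of these 9 the nearest protein-coding start was that of TAF4, and 1 of the 8 peaks assigned to CDH4, at chr20:59339325-59339623, lay 488 kb before its start.

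The 8 CDH4 peaks had 4 or 5 ChIP tags over an input of 40 to 73 tags per 10 kb, all above the genome-wide level, with a median of 48. The input of 73 was that of the peak before the gene, and those inside reached 60. Along the gene, the peak at chr20:59875737-59876057 had 4 tags over an input of 45 tags per 10 kb. The one at chr20:59950911-59951209 had 4 tags over 60, and that at chr20:60185719-60186017 had 4 over 51. A close pair followed, 4.11 kb apart, at chr20:60251166-60251464 with 5 tags over 44 and at chr20:60255274-60255572 with 5 over 50. Further on lay chr20:60330439-60330826 with 5 tags over 46 and chr20:60340221-60340535 with 4 over 40. Another intronic peak, at chr20:60411025-60411323 and nearest to the start of TAF4, had 4 tags over 42. The peak in the exon, near the end of the gene, had 4 tags over an input at the genome-wide level. Each CDH4 peak thus rests on few tags. Some are also repetitive. The share of stretches of 10 bases that recur within the peak was 61.0% at chr20:59950911-59951209 and 61.5% at chr20:60330439-60330826. It was 39.3% at chr20:59339325-59339623. The sequences given above for CDH4 differ in their ETS cores, with 3 GGAA in the first and 9 in the second, the most of the 8 peaks. The peaks at chr20:59950911-59951209 and chr20:60330439-60330826 held 0.

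NACC2, which encodes a BTB domain repressor, was nearest to 4 peaks, all in its introns on 9q. The peaks at chr9:138976207-138976562 and chr9:138978587-138978885 lay 2.35 kb apart, each with 5 ChIP tags over the genome-wide input. Another, at chr9:138984624-138984922, had 5 tags over 50 input tags per 10 kb, and the last, at chr9:138914103-138914401, had 5 over 40. The other genes nearest to more than 2 peaks had 3 each. They were BHLHE23, MYT1 and SLCO4A1 on 20q, GABBR2, a GABA receptor subunit, and MVB12B on 9q, GFRA3, a co-receptor of GDNF family ligands, PRR16, SEMA6A and SLIT3, an axon guidance ligand, on 5q, and CDH9 on 5p. The peaks nearest to BHLHE23, MVB12B, PRR16 and SEMA6A all lay outside these genes, those of SEMA6A 104, 622 and 958 kb from its start. Only 1 lay inside SLCO4A1 and 1 inside CDH9. The other peaks of CDH9 lay 305 and 1119 kb from its start. Input was above the genome-wide level at all 3 peaks nearest to SLIT3 (40 to 51 tags per 10 kb), GFRA3 (47 to 66.9) and MVB12B (49 to 66.9). It was so at 1 of the 3 nearest to SLCO4A1 and at 1 of the 3 nearest to CDH9.

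Of all 2227 protein-coding genes on the 3 chromosomes, 116, 5.21%, had a weak peak inside, and 521, 23.4%, had one inside or within 100 kb, whatever their length. Of 8 cadherin genes looked up on these chromosomes, 3 had a weak peak inside, CDH4, CDH9 and CDH18, and CDH22 had one 21.2 kb away. None of 55 protocadherin genes on chromosome 5 had one inside or within 100 kb, but 53 of them lie in 1 locus of 727 kb and so amount to little more than a single observation. PABPC1L, a relative of PABPC1 on chromosome 20, had none either. Of 19 genes that are often within gains or losses of these chromosomes in cancers, SRC, which encodes a tyrosine kinase, had a weak peak inside. Another 5 had one within 100 kb, among them BCL2L1, an inhibitor of apoptosis, at 9.63 kb, ZNF217 at 64.9 kb and TPX2 at 84.4 kb. TERT, on 5p, had one at 38.2 kb, with an input at the genome-wide level.

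The peaks lay in exons, in introns and between genes in shares near those of all sequence of these chromosomes. Exons held 7.39% of the 284 peaks, introns 56.3% and sequence between genes 36.3%, against 4.90%, 54.3% and 40.8% of all 1191096 windows of 300 bp on the 3 chromosomes. On the other autosomes the weak peaks gave 6.40%, 55.8% and 37.8%. A transcription start lay within 1 kb of 24 peaks, 8.45% (5.74 to 12.3), against 6.57% of windows and 11.0% of the weak peaks elsewhere. Within 5 kb the shares were 32.7%, 24.4% and 32.4%, and the median distance to a start was 10.2 kb for the peaks and 15.0 kb for the windows.

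The ETS core GGAA was less frequent than in windows of these chromosomes, and the interval of ACGGAT included the share of the windows. GGAA was found on either strand of 232 of the 284 peaks, 81.7% (76.8 to 85.8), of 83.5% of weak peaks elsewhere and of 92.1% of the windows of 300 bp. Among the peaks counted below as repetitive 17 of 37 held it, 45.9%, and among the others 215 of 247 did, 87.0% (82.3 to 90.7). The peaks were GC-richer than the windows, with a median of 50.2% against a mean of 40.9%. ACGGAT, the ETS motif named for RWPE-ERG peaks by the study, occurred in 8 peaks, 2.82% (1.43 to 5.46), in 1.72% of weak peaks elsewhere and in 1.72% of windows. GAAGATC occurred in 2.46% of the peaks, 2.09% of weak peaks elsewhere and 2.80% of the windows. GAGNCTGAG occurred in 15.5% (11.7 to 20.2), in 11.2% of weak peaks elsewhere and in 9.44% of windows. AAAAA occurred in 55.3% of the peaks, 49.4% of weak peaks elsewhere and 78.3% of the windows. In 200 bp centred on the summit, the order of the peaks and the weak peaks elsewhere turned for 4 of the 5 motifs, all but GAGNCTGAG, so no difference between them is read from these motifs.

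The 8 peaks held 17 occurrences of ACGGAT, 10 of them in the PURPL peak alone, which repeats the motif every 28 bases and had 4 ChIP tags over the genome-wide input. Of the other 7 sites, 6 are printed with 10 bases on each side, on the strand that reads ACGGAT (minus except where stated), with the motif in capitals.
SLC24A3 intron, chr20:19339386-19339411: gcgactgctaACGGATacagaatatc
PREX1 intron, chr20:47316464-47316489: aggaatgtggACGGATgttggaattg
intergenic, chr5:119089355-119089380: tctctcggccACGGATaccagcaact
intergenic, chr9:80796307-80796332: tttggggtccACGGATaaaacatgtc
intergenic, plus strand, chr9:90849197-90849222: ctagatctgcACGGATcagcagcaca
intergenic, chr9:129001920-129001945: acacccctccACGGATatacacatac
The 7 peaks had 3 to 5 ChIP tags over 40 to 68 input tags per 10 kb. All 7 inputs were above the genome-wide level, and that of PREX1, which encodes an activator of Rac, was the highest of them with 5 ChIP tags over 68.

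Short tandem repeats were common in the weak peaks, here and elsewhere. A peak was counted as repetitive where at least 25% of its stretches of 10 bases recur within it, a measure added after the data had been seen. This held for 37 of the 284 peaks, 13.0% (9.60 to 17.4), for 13.8% of weak peaks on the other autosomes and for 0.901% of windows. By chromosome it held for 17.2% of the peaks on chromosome 20, 11.7% on chromosome 5 and 10.6% on chromosome 9. In all, 31 of the 284 peaks shared the highest -log10 p of 6.44, that of 5 tags over the genome-wide input, so rank within that set carries no information. Taking the lowest starts among them on each chromosome, they include peaks in introns of LINC00654 on chromosome 20, of CLPTM1L on chromosome 5, and of FREM1 and LINC01242 on chromosome 9. Raised input was found at 25 of the 37 repetitive peaks, 67.6%, and at 189 of the other 247, 76.5%. All stretches of 50 bases were unique in the genome for 180 peaks, 63.4%, and for 63.9% elsewhere, and 10 peaks, 3.52%, had none that were. The highest input of all, 134 tags per 10 kb as given by the window of the fragment length, lay under an intergenic repeat at chr5:109415537-109415835 with 5 ChIP tags.

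At a q of at most 0.05, 60 of the 284 peaks, 21.1%, would be called, against 36.9% of all 1481 RWPE-ERG peaks. The limit on tags fixes this lower share, and nothing is read from it. Peaks of 3, 4 and 5 tags numbered 28, 139 and 117, and 224 of the 284 had the shortest length that the caller allows, 299 bp. Just outside the limits were 24 peaks of 6 tags and less than 400 bp.

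In RWPE-empty vector cells, 44 peaks were called on the 3 chromosomes, 4 on chromosome 5, 39 on chromosome 9 and 1 on chromosome 20. None of them overlapped a weak RWPE-ERG peak, and the study reported little overlap between the full lists as well. The 3 that lay within 10 kb of one sat at a single place on 9q, chr9:140222213-140222904. Their inputs were 260 to 941 tags per 10 kb. The lists differ in depth, in fragment length (85 bp against 299 bp) and in the number of tags a peak needs, with 10 or more at every one of these 44 peaks, so the absence of overlap is not a difference in binding that could be tested. The input of these peaks comes from a separate library. On chromosome 9 all 39 had an input above the genome-wide level of that library, which is 58.3 tags per 10 kb, as did 62 of 69 peaks on the other autosomes apart from chromosome 19. Chromosome 19 was kept apart because it alone held 249 peaks of this list, and 130 of them, 52.2%, were above that level. Where the 10 kb window alone fitted, the median was 79 tags (75 to 84) at 14 peaks of 9q and 65 (59 to 78) at 7 of 9p. It was 96 (65 to 153) at 13 peaks of the other autosomes apart from chromosome 19. Inputs that fit the 1 kb window as well, such as 60, 70 and 80 tags per 10 kb on 9p and 80 on 9q, are left out. The medians of 9p and 9q are therefore not compared. With 4 peaks and 1 peak, chromosomes 5 and 20 gave no basis for a comparison with the RWPE-ERG input.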

How the data were processed

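Peak lists of PABPC1 ChIP-seq in RWPE-ERG and RWPE-empty vector cells were used, each from 1 ChIP and 1 input library. The authors aligned reads to hg19 with Bowtie2 and called peaks with MACS2 2.1.2 at a p cut-off of 0.001. The deposited lists give positions, the signal at the summit (pileup of ChIP tags), -log10 p, -log10 q and a ratio, the fold enrichment over local input. The RWPE-empty vector pileup had been scaled to the input by the authors and was divided by that factor. The depth per library is in the report and sets the precision.

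Local input was solved from pileup and fold enrichment. Densities used sequence without N in GRCh37, which is hg19, and genes came from GENCODE release 44. Intervals of 95% were Wilson for shares, from order statistics for medians, and Clopper-Pearson for ratios. No p-value was computed. Motifs were counted on both strands. Calculations used scipy 1.17.1, pandas 2.3.3, numpy 2.4.6, pysam 0.24.0 and numba 0.67.0 in Python 3.11.15, with plots by matplotlib 3.10.9. The calculations were tested on simulated peaks with known answers. Named were the 3 peaks of highest -log10 p per chromosome (ties by lower start, named together), genes nearest to 3 or more peaks, peaks with ACGGAT, the closest peaks and fixed gene lists. The MYT1 pair, the peak of highest input and the end of 20q were chosen after their values were seen. The peaks and lists were chosen with earlier results of these data known. Alternatives covered thresholds, repeats, chromosome sets, GC content and distance limits. Some genes of the lists are given only as counts, and some named peaks and sites are not reported here.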

Additional observations from a re-analysis of the deposited data

How the results depend on the processing

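Of 55 results under alternatives, 39 stayed within the interval of the value reported, and 16 moved. No difference of shares with raised input changed sign, and the long over short arm ratio did not cross 1. The chromosomes were chosen for many peaks per Mb. This choice set the density ratio to the other autosomes above 1 beforehand, so nothing is read from its staying there. The density ratio of 2.28 stayed between 2.05 and 2.34 with full chromosome lengths, a -log10 p of at least 4, peaks within 1 kb merged, unique sequence only, all peaks of the list, no internal repeats, and without the end of 20q. The long over short arm ratio of 2.95 stayed between 2.62 and 3.40 under the alternatives run for it. The median input of 46 tags per 10 kb was 40.5 with peaks of 3 tags only, 50 at a GC content of 40 to 45% and 39.5 at 50% or more, and it was 46 without chromosome 5, without chromosome 9 or without chromosome 20. The share with raised input exceeded that of the other autosomes by 31.4 percentage points, by 25 with 5 tags only and by 41.8 at a GC content of 45 to 50%. GC classes, the long arms alone, internal repeats and the end of 20q were added after seeing the data.

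Some values moved because the limit itself was wider or narrower. A neighbour lay within 10 kb of 6.69% and within 1 Mb of 82.4% of peaks, and a start within 5 kb of 32.7% and, for protein-coding starts within 1 kb, of 4.58%. In 200 bp centred on the summit, 74.6% of the peaks held GGAA, against 73.9% of weak peaks on the other autosomes. The shares were 1.41% and 1.48% for ACGGAT, 0.352% and 1.97% for GAAGATC, and 39.1% and 40.3% for AAAAA, so these 4 comparisons turned from the order in whole peaks. That of GAGNCTGAG, 10.6% and 8.13%, did not. GAAGATC fell from 7 peaks to 1. Within 10 kb, and also within 100 kb, 3 RWPE-empty vector peaks lay near a weak peak.

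No paired analysis was possible because each condition has 1 library and no test was made. The limit is the depth of the RWPE-ERG ChIP library, where a weak peak is 3 to 5 tags, and input below the genome-wide level cannot be read from these lists. Whether extra DNA copies go with the raised input was not tested.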
